A study of Mus musculus with 12 samples.

Results

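The genes described here are 10 established transcriptional targets of p53, measured by RNA-seq in the livers of 12 AAV-treated mice: Cdkn1a, Mdm2, Ccng1, Bax, Bbc3, Trp53inp1, Eda2r, Phlda3, Sesn2 and Zmat3. They were taken by gene symbol from the 57180 genes of the deposited tables, and all 10 were among the 19355 genes that passed the filter on low counts (5 or more reads in 3 or more livers, with libraries brought to the median size). All of the mice lacked Csa, the gene listed as Ercc8, and all had received AAV9-CSA, a vector with a human CSA cDNA under the CBA promoter, by intracerebroventricular injection as neonates. KO stands for CX mice whose livers were collected at the humane endpoint, and Het for age-matched littermates that served as controls. The age in days of each mouse is not given in the labels. The labels and methods write the KO genotype as Csa-/- Xpa+/+ and the Het genotype as Csa-/- Xpa+/-, whereas CX mice are described as Csa-/- Xpa-/-, so the mice were grouped by the names KO and Het. Each group held 3 females and 3 males, and single mice carry a name such as Het_F_115, in which F stands for female and M for male. Because every mouse received the vector, none of the comparisons is between treated and untreated livers.

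p53 is a transcription factor that is held at low levels in unstressed cells and is stabilised when DNA is damaged or transcription is blocked. It then induces genes that stop the cell cycle, repair DNA, adjust metabolism or start apoptosis, and also genes that turn it off again. CSA acts in transcription-coupled repair, which removes lesions that stall RNA polymerase, and XPA acts in the nucleotide excision step that follows. Among the 10 genes, Cdkn1a encodes the cyclin-dependent kinase inhibitor p21, Ccng1 encodes cyclin G1, and Mdm2 encodes the ubiquitin ligase that degrades p53. Bax and Bbc3 (PUMA) are pro-apoptotic members of the BCL2 family, Eda2r is a death-domain-free receptor of the TNF receptor family for the ectodysplasin form EDA-A2, and Phlda3 competes with AKT for membrane lipids. Trp53inp1 takes part in autophagy and in p53-dependent cell death, Sesn2 restrains mTORC1 and supports antioxidant defence, and Zmat3 is an RNA-binding protein.

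p53 binds a pair of copies of a decamer (10 bases), the p53 consensus decamer, which reads the same on either strand. The region from 5000 bases before to 5000 after the most upstream annotated start of each gene was searched on GRCm39 for such pairs. In every search no mismatch was allowed at the 4 central bases of either decamer. Adjacent decamers with at most 1 mismatch in all were found at 3 of the 10 genes (Cdkn1a, Ccng1 and Zmat3), against 1.23% of 21765 protein-coding genes. These 3 are shown because their genes were among those that stood highest in Het_F_115, as described below, and the pair at Trp53inp1 is shown because its gene followed another pattern. The decamers are in capitals, 4 flanking bases are in lower case on each side, and each sequence is given 5′ to 3′ on the strand of its gene.
Cdkn1a, chr17:29309898-29309925, plus strand, 34 bases before the start, 1 mismatch: tcagGAACATGTCTTGACATGTTCagcc
Ccng1, chr11:40645759-40645786, minus strand, in an intron 366 bases after the start, 1 mismatch: cggaACGCAAGCCCGGGCTAGTCTgcgc
Zmat3, chr3:32418476-32418503, minus strand, in an exon 1664 bases after the start, 0 mismatches: tgagAAACAAGCCCAGGCATGTCTtggg
Trp53inp1, chr4:11155108-11155136, plus strand, 1300 bases before the start, decamers 1 base apart, 0 mismatches: aggaAAACATGTCCaGGACTAGCCTggac

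When the decamers could lie 0 to 13 bases apart, pairs with at most 1 mismatch were present at 5 of the 10 genes and at 19.5% of all genes, and pairs with at most 2 mismatches at 7 of the 10 and at 63.3% of all genes. Mdm2, Eda2r and Sesn2 had no such pair, although Mdm2 and Eda2r were also among the genes that stood highest in Het_F_115. Exact pairs at 0 to 13 bases were present at 3 of the 10 (Cdkn1a, Trp53inp1 and Zmat3) and at 3.03% of all genes. A match describes letters in a window and not binding in these livers. The annotated genes lie on chromosome 17 from 29309936 to 29319701 (Cdkn1a), chromosome 10 from 117524780 to 117546730 (Mdm2), chromosome 11 from 40639377 to 40646148 (Ccng1), chromosome 7 from 45111015 to 45116325 (Bax) and from 16042318 to 16052130 (Bbc3), and chromosome 4 from 11156412 to 11175230 (Trp53inp1) and from 132219335 to 132237815 (Sesn2). Eda2r lies on chromosome X from 96320270 to 96420847, Phlda3 on chromosome 1 from 135693809 to 135697686, and Zmat3 on chromosome 3 from 32388941 to 32420163.

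Each library held between 30044812 and 43634073 counts on genes. Xpa was lower in every KO liver (0.990 to 1.82 CPM, median 1.15) than in any Het liver (3.13 to 6.32, median 4.64), with a log2 fold change of -1.84 (SE 0.17, adjusted p = 5.7e-05). CPM is the count as a share of the TMM-scaled library size, multiplied by a constant that is the same for all genes and livers. Reads counted on Ercc8 were higher in KO livers (14.7 to 34.3 CPM) than in Het livers (5.12 to 8.76), with a log2 fold change of 1.61 (adjusted p = 1.9e-04), and the source of those reads was not tested. Hepatocyte markers (5 of 6 on the list were tested) summed to between 56761 and 129154 CPM in all 12 livers. Of these markers 1 (Ttr, transthyretin) fell in KO livers, where 21.7% of all tested genes had an adjusted p under 0.05. Its log2 fold change was -0.83 (adjusted p = 0.0040) over both sexes and -1.17 (adjusted p = 0.011) in females. One control liver, Het_F_115, stood apart in many of the genes described here, with a total of 38368702 counts and a TMM factor of 1.01 that lay within the range of the other livers, and the genotype effect on the 10 genes is therefore given with and without it. For other genes and lists, values without it are given where a call or a count of calls changed. As this liver was singled out by its values in the same genes, results without it are descriptive.

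As groups, no difference between KO and Het livers was called in any of the 10 genes when all 12 livers were tested, and a single control liver held the highest level of most of them. By the quasi-likelihood test of edgeR, adjusted over all tested genes by the Benjamini-Hochberg method, 0 of 10 were called at an adjusted p under 0.05 for genotype over both sexes, where 21.7% of all tested genes were called. At an unadjusted p under 0.05 the count for genotype was also 0 of 10, against 35.5% of all tested genes, and DESeq2 called 0. The same count of 0 was obtained in females, where 9.83% of all genes were called, and in males, where 6.92% were called. In females 2 of the 10 (Ccng1 and Eda2r) had an unadjusted p under 0.05, against 28.1% of all genes, and DESeq2 called these 2. For this and the other DESeq2 counts, the share of all genes called was not computed. In males both counts were 0, against 23.4% of all genes at an unadjusted p under 0.05. Over both sexes the 6 KO and 6 Het livers overlapped for each of the 10 genes, whereas they did not overlap for 9.55% of all genes. The median log2 fold change of the 10 genes was -0.09 over both sexes, -0.23 in females and 0.28 in males, and the median of all tested genes for genotype was 0.01. Without Het_F_115 the median of the 10 was 0.17 over both sexes, 0.36 in females and 0.28 in males, so that its direction turned over both sexes and in females. In that fit 1 of the 10 (Cdkn1a) was called over both sexes, against 19.1% of all genes. Cdkn1a was highest in the liver left out, so this call depends on that choice.

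**Figure D1:**
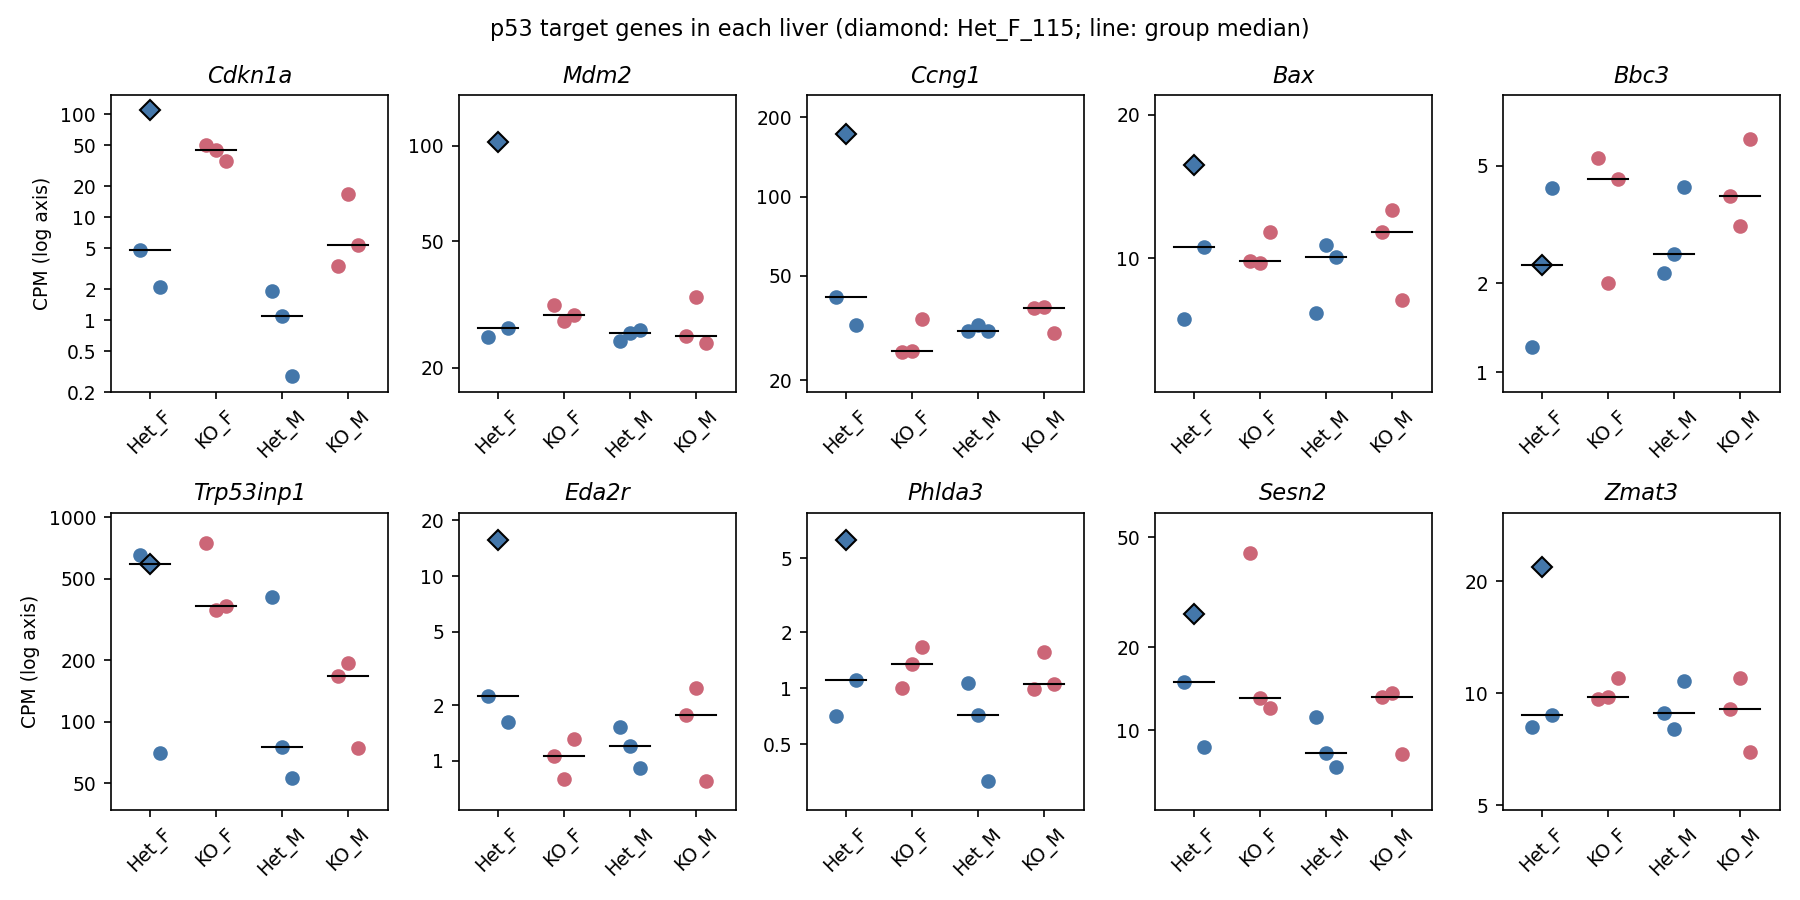
Level of each of the 10 p53 target genes in each liver, in CPM on a log axis that differs between panels, by group (blue, Het; red, KO; n = 3 mice per group; lines, group medians). The diamond marks Het_F_115, which lies above every other liver in 7 panels and for Mdm2 stands at 103 CPM where the other livers lie between 23.9 and 33.3.

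Of the genes that act in cell cycle arrest, Cdkn1a varied most. Values of single livers are given in the same order for every gene, which is Het_F_111, Het_F_115 and Het_F_126, Het_M_119, Het_M_125 and Het_M_137, KO_F_108, KO_F_112 and KO_F_123, and KO_M_118, KO_M_122 and KO_M_136. Cdkn1a was at 4.81, 109.7 and 2.13 CPM in the Het females and at 1.93, 1.11 and 0.286 CPM in the Het males. The KO females were at 50.5, 44.8 and 35.1 CPM and the KO males at 3.40, 17.0 and 5.42 CPM. Thus the 3 KO females lay above every other liver except Het_F_115, the 3 KO males lay above the 3 Het males, and Het_F_115 lay above all. A separation in the same direction was seen in 16.4% of all tested genes between the males, and in 20.3% between the females without Het_F_115. Female livers averaged 38.9 ± 61.3 CPM in Het and 43.5 ± 7.82 CPM in KO mice, and male livers 1.11 ± 0.822 CPM and 8.62 ± 7.36 CPM (mean ± SD, n = 3 per group). Genotype gave a log2 fold change (KO relative to Het) of 1.53 (SE 0.91, 95% interval -0.50 to 3.56, adjusted p = 0.26) over both sexes, 0.16 (interval -2.53 to 2.85, adjusted p = 0.95) in females and 2.90 (interval -0.21 to 6.01, adjusted p = 0.24) in males.

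Without Het_F_115, the log2 fold change of Cdkn1a was 3.27 (SE 0.57, 95% interval 1.98 to 4.55, 9.63-fold, adjusted p = 0.0062) over both sexes. Values were 3.64 (interval 1.70 to 5.57, adjusted p = 0.044) in females, with 2 Het livers left, and 2.90 (interval 1.22 to 4.58, adjusted p = 0.052) in males, whose livers were the same as before but whose estimate of spread was smaller. In these fits Cdkn1a was called over both sexes and in females, where 5.70% of all genes were called, and not in males, where 6.96% were called. Het_F_115 was singled out after its values were seen, and it held the highest Cdkn1a of all livers. A larger difference without it thus follows from the choice. The p values and intervals of these fits describe the livers left and are no separate support for a rise. The 5 Het livers left lay between 0.286 and 4.81 CPM and the 6 KO livers between 3.40 and 50.5 CPM, so that only KO_M_118 overlapped the Het range. The difference between the sexes in the genotype effect was 2.74 on the log2 scale with all livers (male effect minus female effect, adjusted p = 0.68) and -0.74 without Het_F_115 (adjusted p = 0.88).

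Ccng1 did not share this pattern among the other 11 livers. Its level was 41.6, 173 and 32.5 CPM in the Het females and 30.8, 32.4 and 30.7 CPM in the Het males. KO livers were at 25.7, 25.8 and 34.1 CPM in females and at 37.7, 37.9 and 30.4 CPM in males. Apart from Het_F_115 at 173 CPM, all livers lay within 25.7 to 41.6 CPM. Its log2 fold change was -0.68 (95% interval -1.48 to 0.12, adjusted p = 0.21) over both sexes and -1.53 (interval -2.68 to -0.38, adjusted p = 0.086) in females. Without Het_F_115 these values were -0.10 (interval -0.35 to 0.15, adjusted p = 0.56) and -0.38 (interval -0.74 to -0.01, adjusted p = 0.19).

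Mdm2, the negative regulator of p53, was even outside Het_F_115. Its level was 25.1, 103 and 26.8 CPM in the Het females and 24.3, 25.6 and 26.4 CPM in the Het males. The KO females were at 31.5, 28.1 and 29.2 CPM and the KO males at 25.2, 33.3 and 23.9 CPM. Het_F_115 thus held 3.91 times the median of the other livers. The KO females lay between 28.1 and 31.5 CPM, above both remaining Het females, a separation that was found in the same direction in 20.3% of all genes without Het_F_115. The log2 fold change was -0.35 (95% interval -1.05 to 0.36, adjusted p = 0.47) over both sexes, and 0.15 (interval -0.07 to 0.37, adjusted p = 0.32) without Het_F_115, so that a rise of over 0.37 on the log2 scale lay outside the interval.

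The pro-apoptotic BCL2 family members Bax and Bbc3 showed little separation of the genotypes. Bax was at 7.46, 15.7 and 10.6 CPM in the Het females and 7.68, 10.7 and 10.1 CPM in the Het males. KO livers were at 9.84, 9.78 and 11.3 CPM in females and at 11.4, 12.6 and 8.15 CPM in males. Het_F_115 was again the highest, at 1.25 times the next liver, and the genotypes overlapped in both sexes. KO against Het gave a log2 fold change of 0.03 for Bax (95% interval -0.36 to 0.41, adjusted p = 0.93), and 0.18 (interval -0.15 to 0.52, adjusted p = 0.42) without Het_F_115.

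For Bbc3, Het_F_115 did not stand out. Levels were 1.22, 2.30 and 4.19 CPM in the Het females and 2.16, 2.52 and 4.22 CPM in the Het males. The KO females were at 5.31, 2.01 and 4.52 CPM and the KO males at 3.94, 3.13 and 6.17 CPM. The Het livers thus lay between 1.22 and 4.22 CPM and the KO livers between 2.01 and 6.17 CPM, with overlap in both sexes. KO livers had a log2 fold change of 0.58 (95% interval -0.14 to 1.30, adjusted p = 0.23), and 0.54 (interval -0.27 to 1.36, adjusted p = 0.33) without Het_F_115, and the difference did not exceed the spread between mice.

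Eda2r and Phlda3 were expressed at low levels in all livers but Het_F_115. Eda2r was at 2.25, 15.7 and 1.63 CPM in the Het females and 1.53, 1.21 and 0.920 CPM in the Het males. KO livers were at 1.06, 0.802 and 1.31 CPM in females and at 1.78, 2.49 and 0.775 CPM in males. The KO females lay below the Het females with and without Het_F_115, whereas the males overlapped. A lack of overlap between the females in either direction was found in 30.4% of all genes with all livers and in 41.4% without Het_F_115. For Eda2r the log2 fold change was -1.05 (95% interval -2.24 to 0.13, adjusted p = 0.19) over both sexes and -2.56 (interval -4.26 to -0.85, adjusted p = 0.059) in females, and without Het_F_115 it was -0.19 (interval -0.83 to 0.44, adjusted p = 0.68) and -0.83 (interval -1.77 to 0.10, adjusted p = 0.25).

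Phlda3 was at 0.711, 6.26 and 1.11 CPM in the Het females and 1.06, 0.719 and 0.317 CPM in the Het males. The KO females were at 0.9996, 1.36 and 1.66 CPM and the KO males at 0.990, 1.56 and 1.06 CPM. Both genotypes overlapped. For Phlda3 the log2 fold change was -0.12 (95% interval -1.31 to 1.07, adjusted p = 0.90), and without Het_F_115 it was 0.63 (interval -0.02 to 1.28, adjusted p = 0.16).

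Trp53inp1 varied widely within both genotypes and did not separate them. Its level was 652, 589 and 70.1 CPM in the Het females and 408, 74.8 and 52.8 CPM in the Het males. KO livers were at 752, 353 and 367 CPM in females and at 166, 194 and 74.5 CPM in males. High and low livers were thus found in both genotypes, and Het_F_111 and KO_F_108 lay above Het_F_115. Genotype gave a log2 fold change of -0.07 (SE 0.64, 95% interval -1.49 to 1.35, adjusted p = 0.96), and 0.07 (interval -1.54 to 1.68, adjusted p = 0.96) without Het_F_115.

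Sesn2 was highest in a KO liver. It was at 14.996, 26.3 and 8.72 CPM in the Het females and 11.1, 8.27 and 7.36 CPM in the Het males. The KO females were at 43.7, 13.1 and 12.0 CPM and the KO males at 13.3, 13.7 and 8.24 CPM. KO_F_108 lay above Het_F_115, and the other 5 KO livers lay between 8.24 and 13.7 CPM. KO against Het gave a log2 fold change of 0.43 (95% interval -0.39 to 1.25, adjusted p = 0.44), 0.67 (interval -0.15 to 1.49, adjusted p = 0.23) without Het_F_115 and -0.0051 without KO_F_108.

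Zmat3 was at 8.11, 21.8 and 8.74 CPM in the Het females and 8.85, 8.04 and 10.8 CPM in the Het males. KO livers were at 9.65, 9.81 and 11.0 CPM in females and at 9.09, 11.0 and 6.94 CPM in males. Outside Het_F_115, its levels lay between 6.94 and 11.0 CPM. The KO females lay above both Het females other than Het_F_115, a separation found in the same direction in 20.3% of all genes without that liver. The males overlapped. Genotype gave a log2 fold change of -0.19 (95% interval -0.69 to 0.32, adjusted p = 0.60), and 0.12 (interval -0.18 to 0.42, adjusted p = 0.58) without Het_F_115.

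**Figure D2:**
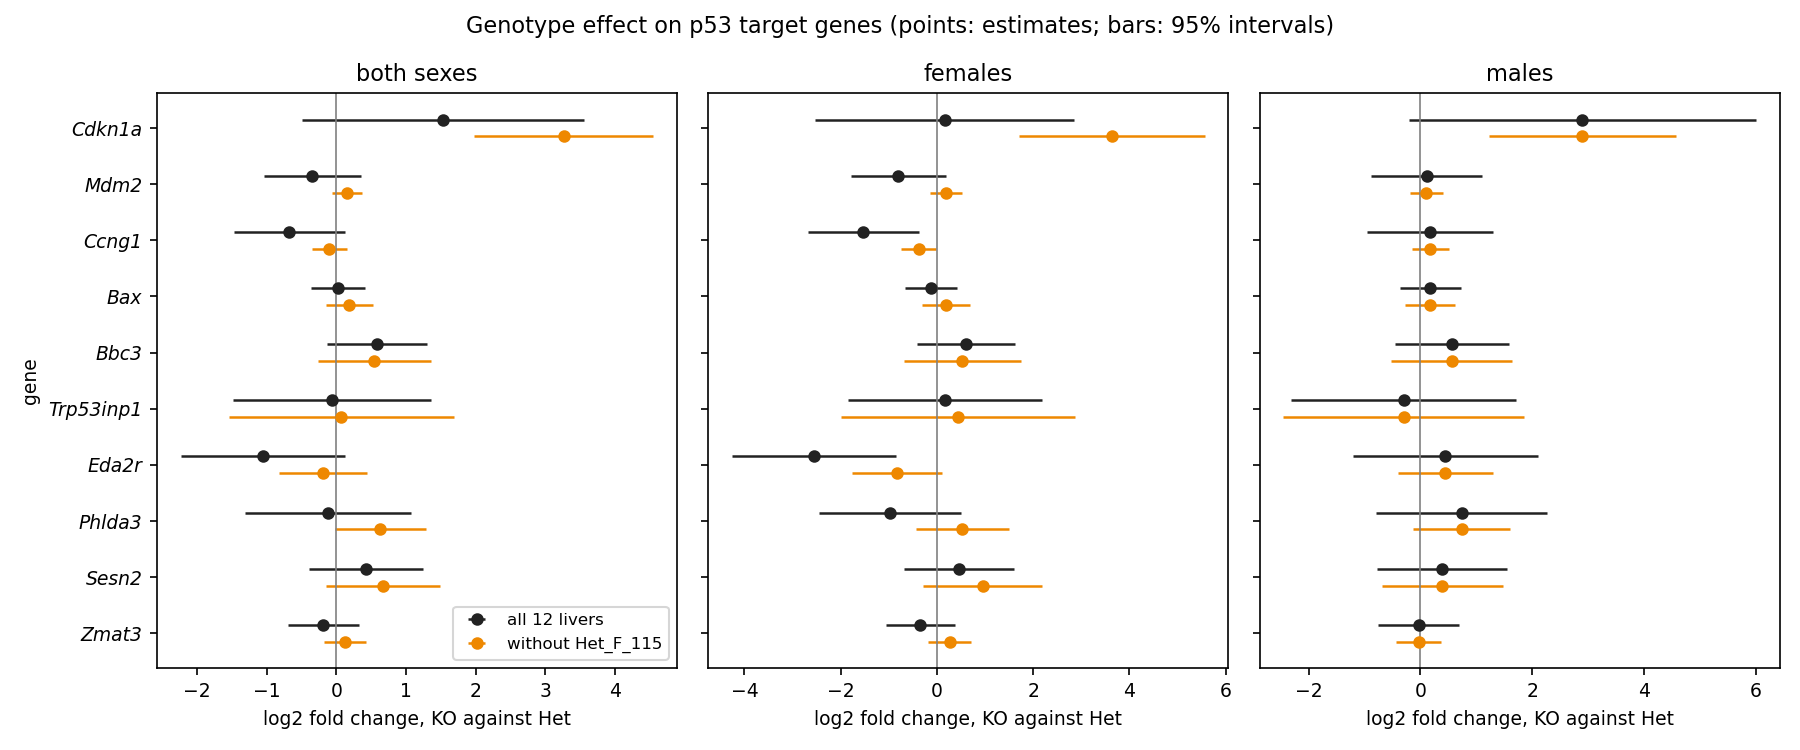
Log2 fold change of KO against Het for the 10 genes over both sexes, in females and in males, from all 12 livers (black) and without Het_F_115 (orange), with 95% intervals as bars. The interval of Cdkn1a over both sexes runs from -0.50 to 3.56 with all livers and from 1.98 to 4.55 without Het_F_115, and every other gene's interval over both sexes includes 0 in both fits. Het_F_115 was singled out after its values were seen.

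Compared per length in TPM, in which levels of different genes can be set side by side, Trp53inp1 was the most abundant of the 10 with a mean of 49.2 TPM over the 12 livers (8.40 to 132). Mdm2 (13.5 TPM), Cdkn1a (10.2 TPM), Bax (9.95 TPM) and Ccng1 (9.75 TPM) followed. The spread of Cdkn1a, from 0.149 to 48.7 TPM, covered the ranges of the 3 genes next to it in this order, so that these neighbours cannot be ranked. Sesn2 (3.35 TPM), Bbc3 (1.99 TPM), Zmat3 (1.12 TPM), Phlda3 (0.902 TPM) and Eda2r (0.577 TPM) were lower. Het_F_115 raised these means, and without it the mean was 6.69 TPM for Cdkn1a, 0.645 TPM for Phlda3 and 0.300 TPM for Eda2r.

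The sexes were compared over both genotypes in the same fit. 0 of the 10 genes were called, where 0.935% of all genes were, and at an unadjusted p under 0.05 there were 3 (Cdkn1a, Trp53inp1 and Sesn2) against 13.5% of all genes, each lower in males. DESeq2 called 1 (Cdkn1a). The log2 fold change of males against females was -3.70 (adjusted p = 0.14) for Cdkn1a, -1.53 (adjusted p = 0.35) for Trp53inp1 and -0.93 (adjusted p = 0.31) for Sesn2. Without Het_F_115 these were -1.96 (adjusted p = 0.21), -1.39 (adjusted p = 0.53) and -0.68 (adjusted p = 0.54). The genotype effect was not called as different between the sexes in any of the 10, where 0.0465% of all genes were called, and DESeq2 also called 0. At an unadjusted p under 0.05 there were 2 (Ccng1 and Eda2r), against 8.98% of all genes. For Eda2r the difference was 3.00 on the log2 scale (adjusted p = 0.50), and without Het_F_115 it was 1.28 (adjusted p = 0.60). For Ccng1 it was 1.70 (adjusted p = 0.54) and 0.55 (adjusted p = 0.58) without that liver.

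Het_F_115 held the highest level of the 12 livers for 7 of the 10 genes (Cdkn1a, Mdm2, Ccng1, Bax, Eda2r, Phlda3 and Zmat3), where it was the highest for 11.0% of all tested genes. In 6 of them, all but Bax, its level was at least 1.5 times that of the next highest liver, which held for 1.21% of all tested genes. Relative to the median of the other 11 livers, its level was 22.8 times higher for Cdkn1a, 12.0 times for Eda2r, 5.90 times for Phlda3, 5.36 times for Ccng1, 3.91 times for Mdm2 and 2.40 times for Zmat3. KO_F_108 was the only other liver that stood at least 1.5 times above all others in any of the 10 genes (Sesn2), and it did so for 3.07% of all tested genes. Because the 10 genes are known targets of the same factor they are not independent of each other, and these counts describe 1 mouse.

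**Figure D3:**
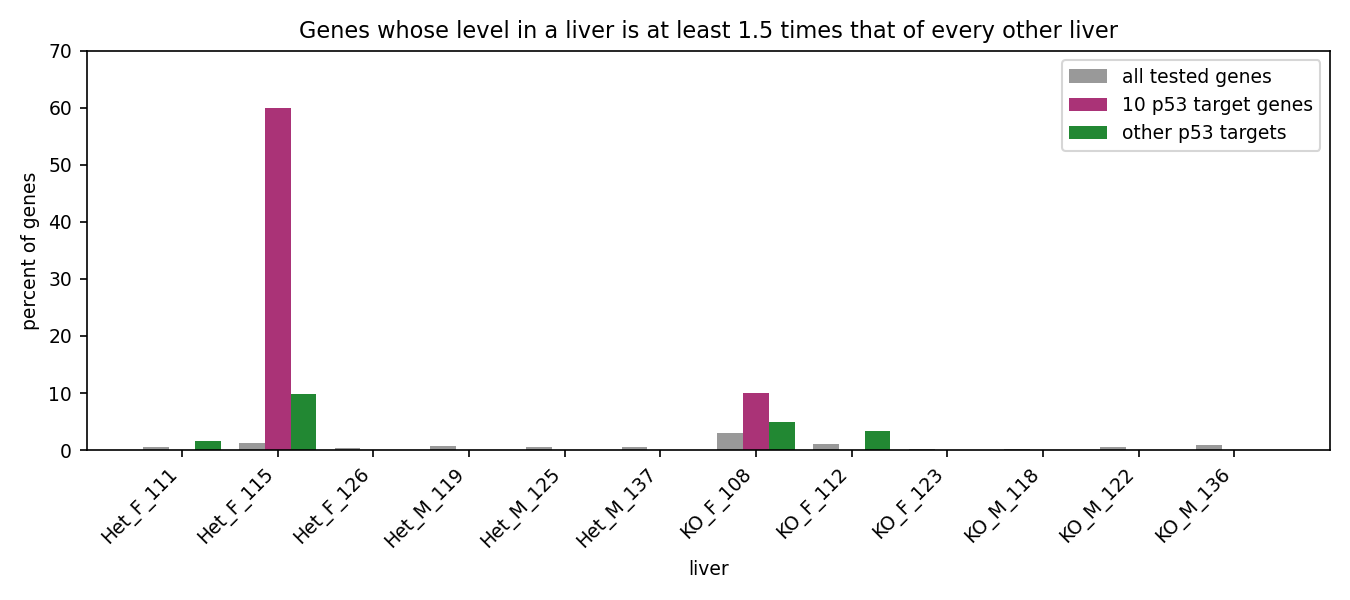
Percent of genes whose level in a given liver was at least 1.5 times that of every other liver, for all 19355 tested genes (grey), the 10 p53 target genes (purple) and 61 other p53 targets (green). For Het_F_115 the bars stand at 6 of 10 genes, 6 of 61 genes and 1.21% of all genes.

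A longer list of 62 other p53 targets was examined in the same way, of which 61 were tested. Het_F_115 was the highest liver for 18 of the 61, against 11.0% of all tested genes. For 6 it was at least 1.5 times above the next liver, against 1.21% of all tested genes: Aen, Polk, Plk2, Apaf1, Tnfrsf10b and Sco2. These 6 were named after their values were seen. Aen, an exonuclease that takes part in apoptosis, was at 67.8 CPM in Het_F_115 and between 10.6 and 18.4 CPM in the other 11 livers. Polk, a translesion DNA polymerase, was at 29.6 CPM against 4.24 to 7.15 CPM. Apaf1, the scaffold of the apoptosome, was at 19.7 CPM against 4.22 to 9.68 CPM. Other well known targets did not share the pattern: in Het_F_115 Btg2 was at 24.6 CPM (8.46 to 479 in the others), Sesn1 at 10.4 CPM (13.01 to 52.5) and Gadd45a at 1.84 CPM (1.12 to 23.8). Het_F_115 was the lowest of the 12 livers for Sesn1.

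**Figure D4:**
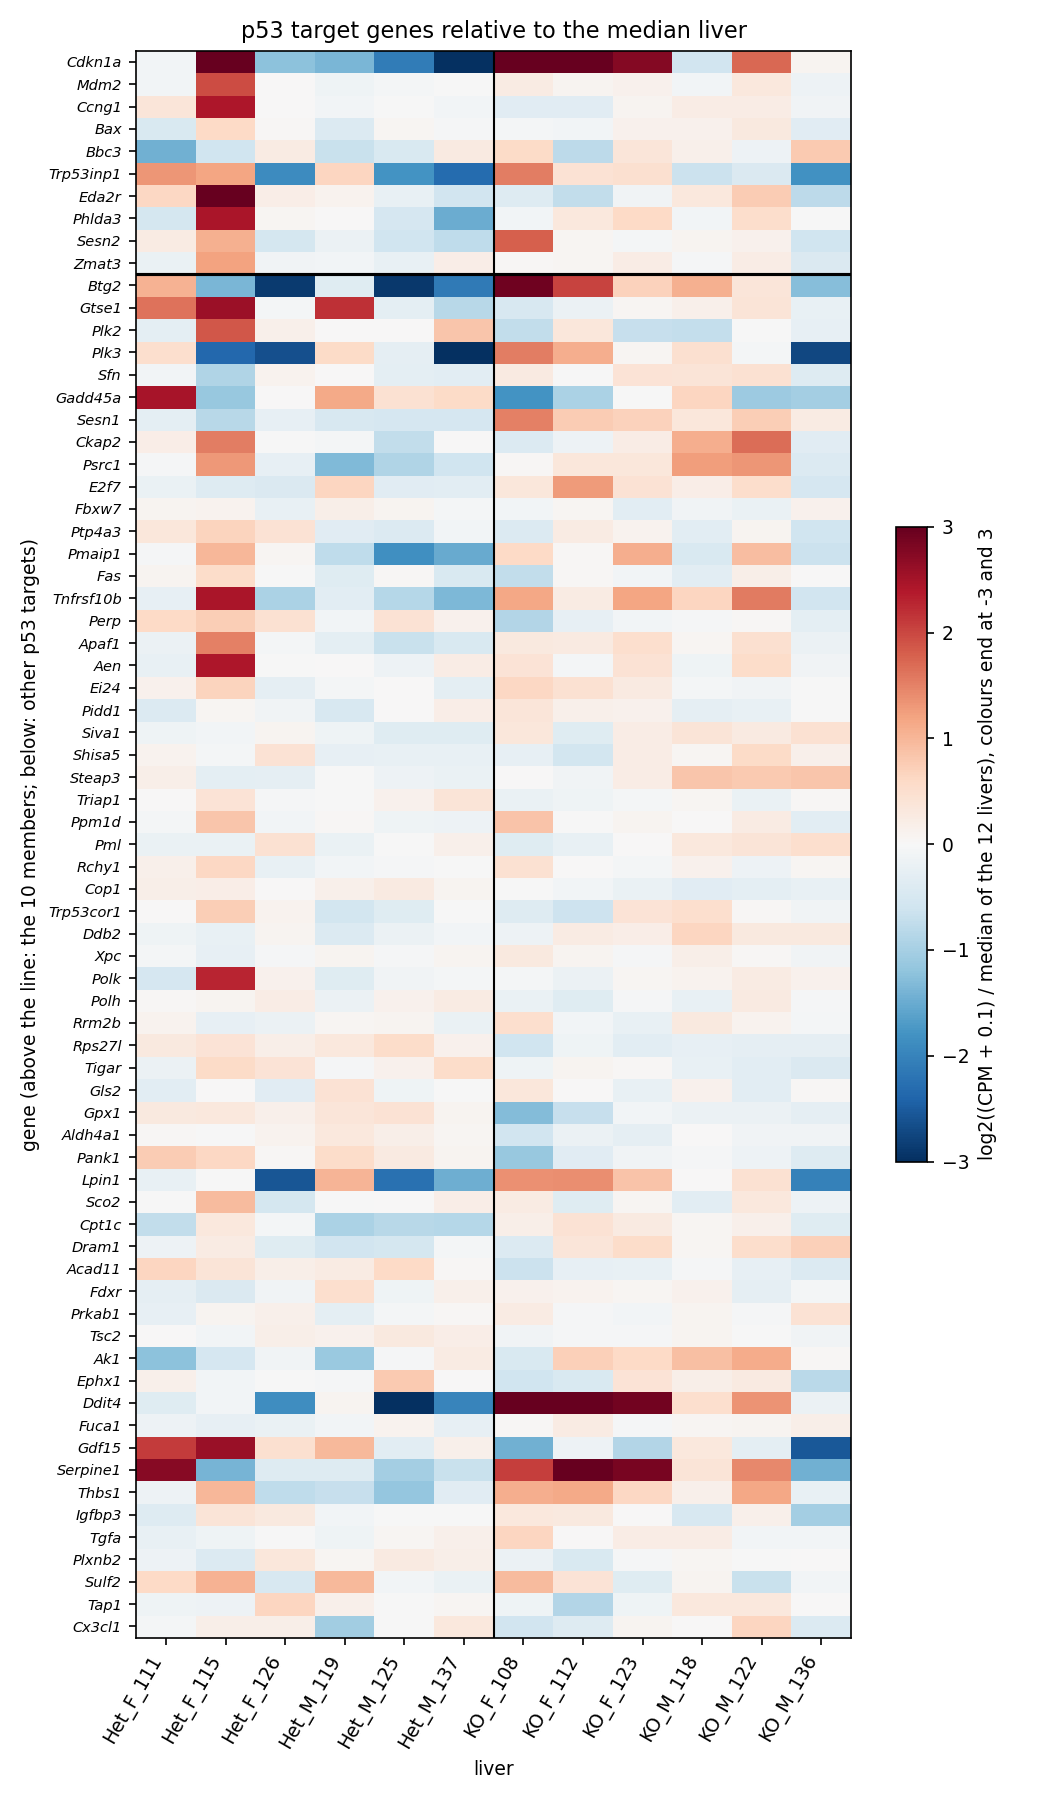
Heat map of the 10 p53 target genes (above the line) and the other p53 targets (below it) in each liver, as log2 of CPM plus 0.1 relative to the median of the 12 livers, with colours ending at -3 and 3. The column of Het_F_115 is red for Cdkn1a, Mdm2, Ccng1, Eda2r, Phlda3, Zmat3, Aen, Polk, Apaf1 and Tnfrsf10b, while Ddit4, at 87.8 to 272 CPM, is red in the 3 KO females.

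Trp53 itself differed little between the genotypes. It was at 6.72 to 12.0 CPM in Het livers (median 7.90) and at 6.39 to 10.5 CPM in KO livers (median 8.08), with a log2 fold change of -0.07 (95% interval -0.44 to 0.30, adjusted p = 0.81), and 0.06 (adjusted p = 0.83) without Het_F_115. Het_F_115 held its highest level, 12.0 CPM, at 1.15 times the next liver. p53 is regulated mainly through its protein, which these libraries do not measure. Mdm4, a partner of MDM2, was at 87.7 CPM in Het_F_115 and at 66.3 to 74.2 CPM in the other Het livers, but it reached 91.6 CPM in KO_F_108. Of the 25 tested genes of p53 and its regulators, 3 rose (Trp63, Atr and Rpl5) and 1 fell (Hipk2) in KO livers, against 21.7% of all genes called, with a median of 0.15. Without Het_F_115, 3 rose and 3 fell, against 19.1% of all genes. Called lower then were also Atm, a kinase that activates p53 after DNA damage (log2 fold change -0.38, adjusted p = 0.024, and -0.27, adjusted p = 0.17 with all livers), and the checkpoint kinase gene Chek2 (-0.93, adjusted p = 0.046, and -0.76, adjusted p = 0.11 with all livers). Atr, a kinase of the DNA damage response, rose from 23.5 to 28.5 CPM in Het livers to 35.3 to 44.1 CPM in KO livers, with a log2 fold change of 0.57 (SE 0.08, adjusted p = 8.6e-04). Trp63 was near the detection limit in Het livers (0 to 0.0327 CPM) and at 0.0535 to 0.687 CPM in KO livers. Hipk2, a kinase that phosphorylates p53, fell by 0.50 on the log2 scale (adjusted p = 0.019).

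Among the 61 other p53 targets, 4 rose (Sesn1, Steap3, Ddit4 and Ddb2) and 8 fell (Rps27l, Acad11, Cop1, Perp, Pank1, Gpx1, Gdf15 and Aldh4a1) in KO livers over both sexes, which is 12 of 61 against 21.7% of all tested genes (11.4% higher and 10.3% lower). Their median log2 fold change was 0.05. By role, 1 rose and 1 fell of 12 in apoptosis, 1 rose of 12 in arrest, 1 rose and 1 fell of 6 in DNA repair, 1 fell of 5 in feedback on p53, 1 rose and 4 fell of 17 in metabolism, and 1 fell of 9 that encode secreted or surface proteins. Sesn1, a paralog of Sesn2, was at 10.4 to 15.6 CPM in Het livers and at 21.9 to 52.5 CPM in KO livers, with no overlap and a log2 fold change of 1.21 (SE 0.16, adjusted p = 6.2e-04). Ddit4, which inhibits mTORC1, had a log2 fold change of 3.16 (SE 0.63, adjusted p = 0.0076), from 0.915 to 12.5 CPM in Het livers to 10.4 to 272 CPM in KO livers. Steap3, a ferrireductase, had a log2 fold change of 0.55 (SE 0.10, adjusted p = 0.0035), with 29.2 to 30.2 CPM in the KO males and 13.8 to 19.7 CPM in all other livers.

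Of those that fell, Rps27l, a ribosomal protein paralog, went from 46.5 to 62.3 CPM in Het livers to 27.9 to 38.7 CPM in KO livers without overlap (log2 fold change -0.61, SE 0.10, adjusted p = 0.0020). Perp, a membrane protein of cell adhesion and apoptosis, had a log2 fold change of -0.62 (adjusted p = 0.010). Acad11, Pank1 and Gpx1, which act in fatty acid oxidation, coenzyme A synthesis and peroxide removal, had log2 fold changes of -0.65, -0.73 and -0.69 (adjusted p = 0.0072, 0.015 and 0.015). Gdf15, a stress-induced hormone, was at 1.06 to 8.28 CPM in KO livers and at 5.26 to 40.1 CPM in Het livers, the highest in Het_F_115 (log2 fold change -1.75, adjusted p = 0.037), and it was not called without that liver (-1.52, adjusted p = 0.074). Ddb2, which recognises ultraviolet lesions, had a log2 fold change of 0.42 (adjusted p = 0.039), and 0.39 (adjusted p = 0.076) without Het_F_115. Aldh4a1 also lost its call without that liver (log2 fold change -0.31, adjusted p = 0.040, and -0.33, adjusted p = 0.056). Without Het_F_115, 8 of the 61 were called higher and 6 lower, and the median was 0.12. Of all tested genes 19.1% were then called, and 9.84% were called higher. Called higher then were also Tnfrsf10b, Apaf1, Psrc1, Cpt1c and Thbs1, with log2 fold changes of 1.64, 0.54, 1.37, 0.81 and 1.31, named after their values were seen. Tnfrsf10b and Apaf1 were highest in the liver left out, so for them a rise without it follows from the choice.

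In females alone 2 of the 61 rose (Ddit4 and Sesn1) and 6 fell (Perp, Pank1, Rps27l, Gdf15, Gpx1 and Acad11), against 9.83% of all genes called. In males 2 rose (Steap3 and Sesn1) and 2 fell (Rps27l and Cop1), against 6.92% of all genes. Without Het_F_115, 1 rose (Sesn1) and 1 fell (Perp) in females, against 5.70% of all genes, and 3 rose (Psrc1 as well) and 2 fell in males, against 6.96%. Sesn1 was thus called higher in KO livers of both sexes.

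Relatives of the 10 genes were compared to see whether a family moved with its p53-responsive member. Of 15 tested paralogs and the ligand Eda, 5 rose (Sesn1, Ccng2, Cdkn1c, Phlda2 and Eda) and 1 fell (Trp53inp2), against 21.7% of all genes called, with a median of 0.04 (0.08 without Het_F_115, with the same counts). Ccng2, a paralog of Ccng1, had a log2 fold change of 0.85 (SE 0.21, adjusted p = 0.014) where that of Ccng1 was -0.68, and without Het_F_115 these values were 1.08 (adjusted p = 0.0013) and -0.10. Trp53inp2 had a log2 fold change of -0.71 (SE 0.16, adjusted p = 0.0099) where that of Trp53inp1 was -0.07, and without Het_F_115 these were -0.60 (adjusted p = 0.020) and 0.07. Cdkn1c, which encodes the CDK inhibitor p57, was at 0.499 to 2.07 CPM in Het livers and 1.73 to 3.04 CPM in KO livers (log2 fold change 0.86, adjusted p = 0.023, and 0.73, adjusted p = 0.055 without KO_M_136). Cdkn1b, which encodes p27, gave 0.13 (adjusted p = 0.46), and Sesn3 gave -0.03 (adjusted p = 0.88). Differences between paralogs were not tested.

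The cell cycle machinery on which p21 acts was described by a pair of lists. Of 17 CDK inhibitors, G1 cyclins and RB family genes, 4 rose (Cdkn2c, Ccnd3, Cdkn1c and Rbl1) and 2 fell (Ccnd2 and Cdk2), against 21.7% of all genes called, with a median of 0.24. Without Het_F_115 the median was 0.14, and 3 rose and 2 fell, since Rbl1 was no longer called (log2 fold change 0.73, adjusted p = 0.035 with all livers, and 0.61, adjusted p = 0.064 without). Cdkn2c, which encodes the CDK inhibitor p18, rose from 1.96 to 4.27 CPM in Het livers to 4.71 to 7.30 CPM in KO livers (log2 fold change 1.11, SE 0.14, adjusted p = 4.9e-04). Ccnd3, cyclin D3, rose by 0.85 and Ccnd2, cyclin D2, fell by 0.81 on the log2 scale (adjusted p = 0.0025 and 0.0062). Of 30 proliferation genes 0 were called over both sexes, against 21.7% of all genes, and the median was 0.29. At an unadjusted p under 0.05 there were 5, against 35.5% of all genes, and DESeq2 called 2. The median was -0.07 in females, with 10 of 30 values above 0, and 0.51 in males, with 24 of 30 above 0. The medians of all tested genes were -0.006 and 0.011. In females 1 gene was called lower (Tyms, log2 fold change -0.73, adjusted p = 0.047), against 9.83% of all genes called. In males 0 were called, against 6.92% of all genes, and 6 had an unadjusted p under 0.05, against 23.4%. Without Het_F_115 the female median was -0.34 and Tyms was not called (adjusted p = 0.088). The difference between the sexes was called in 0 of the 30 genes, against 0.0465% of all genes. At an unadjusted p under 0.05 there were 3, against 8.98% of all genes. Mki67 had a log2 fold change of 0.52 (95% interval -0.35 to 1.39, adjusted p = 0.38) and Top2a of 0.19 (interval -0.81 to 1.196, adjusted p = 0.80). In Het_F_115, where Cdkn1a was highest, Mki67 was at 2.04 CPM and Top2a at 1.22 CPM, within the range of the other Het livers (1.18 to 5.43 and 0.654 to 3.07). The other proliferation genes were mixed in that liver. It was the highest of the 12 for Rrm2 (9.26 CPM, 1.14 to 5.19 in the others) and Kif23. It was the lowest for Bub1, Aurkb, Birc5 and Mcm2 (2.07 CPM for Mcm2, 2.45 to 4.34 in the others). These were named after their values were seen.

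Of 12 tested BCL2 family genes 1 rose (Mcl1, an anti-apoptotic member, log2 fold change 0.46, adjusted p = 0.044), against 21.7% of all genes called, with a median of 0.08, and it was not called without Het_F_115 (0.42, adjusted p = 0.087). Bcl2l1 was at 94.1 CPM in KO_F_108 and at 29.4 to 45.7 CPM in the other KO livers (log2 fold change 0.49, adjusted p = 0.17). Sesn2 and Ddit4 are also known to be induced by ATF4, the effector of the integrated stress response. Of 17 ATF4 targets 6 rose (Asns, Cth, Trib3, Psat1, Slc7a11 and Atf4) and 1 fell (Fgf21), against 21.7% of all genes called, with a median of 0.53. Without Het_F_115 5 rose and 0 fell, since Atf4 (adjusted p = 0.077) and Fgf21 (adjusted p = 0.051) were no longer called, and the median was 0.45. Asns, asparagine synthetase, had a log2 fold change of 3.07 (SE 0.51, adjusted p = 0.0034). Cth, which makes cysteine, had one of 1.25 (SE 0.25, adjusted p = 0.0056), and Trib3 had one of 1.26 (SE 0.28, adjusted p = 0.011). KO_F_108, the liver with the highest Sesn2, also held the highest Cth, 1433 CPM, whereas Asns was highest in KO_M_118 at 45.8 CPM, where Sesn2 was at 13.3 CPM.

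**Figure D5:**
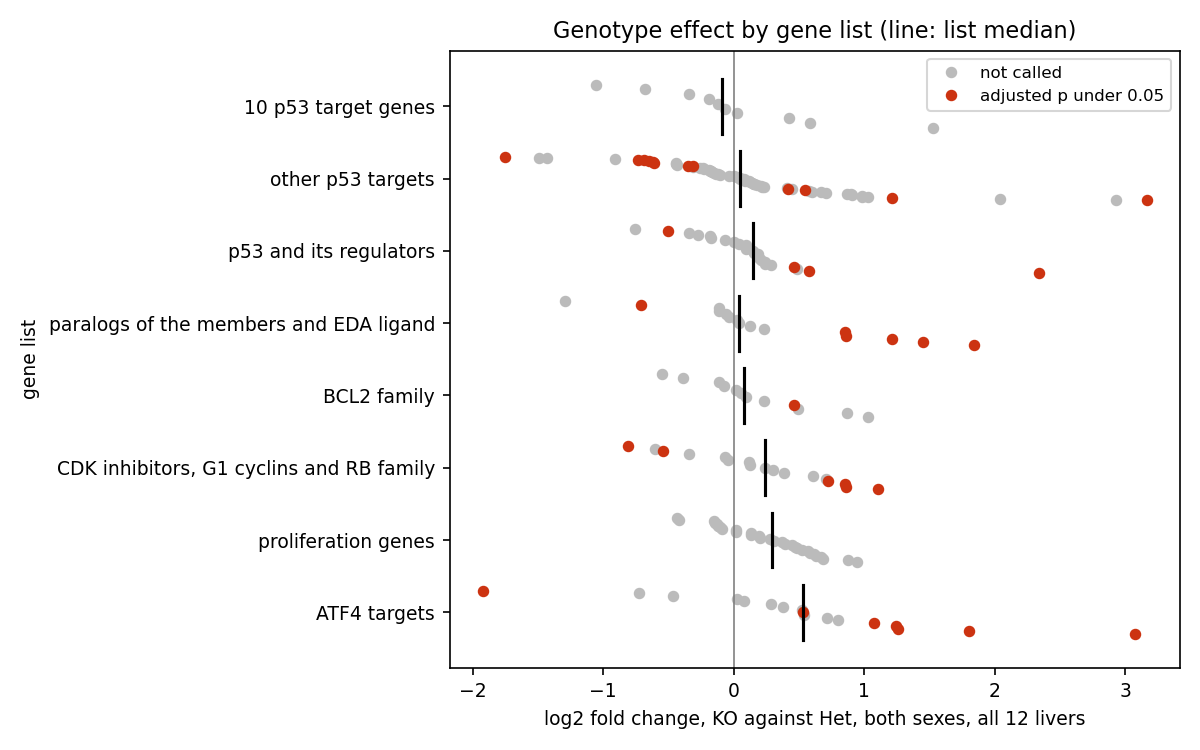
Log2 fold change of KO against Het over both sexes and all 12 livers for each tested gene of 8 lists (red, adjusted p under 0.05; grey, not called; lines, list medians). The 10 p53 target genes have a median of -0.09 with no gene called, and the ATF4 targets have a median of 0.53.

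The 3 genes whose pattern over the 12 livers was most like that of Cdkn1a were Thbd (thrombomodulin), Vcam1 (an adhesion molecule) and Fmnl2 (a formin), with root mean square differences of 0.25, 0.28 and 0.30 between log2 CPM values centred and scaled for each gene. Thbd was at 23.7 CPM in Het_F_115, at 2.55 to 6.91 CPM in the other Het livers and at 4.97 to 18.4 CPM in KO livers. Thbd, Vcam1 and Fmnl2 were not called with all livers (adjusted p = 0.18, 0.13 and 0.40) and were called without Het_F_115 (log2 fold change 1.49, 0.88 and 0.53, adjusted p = 0.012, 0.025 and 0.013). As they were chosen for sharing the pattern of Cdkn1a in the same livers, this follows from the choice and is no separate result. The genes most like the other members were looked at after their values had been seen. For Mdm2 the nearest was Aen (0.19), for Ccng1 it was Eda2r (0.27), for Zmat3 it was Aen (0.30) and for Phlda3 it was Apaf1 (0.41), and each gene of these pairs was highest in Het_F_115. A liver that stands far apart weighs heavily in this measure, so the shared highest liver follows largely from the choice and is no separate result. For Trp53inp1 the nearest was Ptp4a1 (0.29), a phosphatase, for Sesn2 it was Otud4 (0.27), and for Bax it was the proteasome subunit gene Psmd3 (0.41).

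Some marker genes of other liver cell types were called for genotype, where 21.7% of all tested genes were called. In bulk liver RNA fewer cells of a type and less RNA per cell cannot be told apart. Of 4 sinusoidal endothelial markers 2 (Kdr and Clec4g) fell, with a summed level of 135 to 256 CPM in Het and 102 to 171 CPM in KO livers. Of 5 stellate cell markers 2 (Lrat and Reln) fell, with sums of 218 to 416 CPM in Het and 111.8 to 223 CPM in KO livers. Among Kupffer cell markers 2 of 5 rose (Cd5l and Vsig4), with sums of 87.7 to 223 CPM and 114 to 355 CPM, though Cd5l was not called without Het_F_115 (0.78, adjusted p = 0.042, and 0.74, adjusted p = 0.082, on the log2 scale), and among monocyte markers 1 of 4 rose (Itgam), with sums of 2.79 to 7.55 CPM and 6.31 to 11.3 CPM. Of 4 tested neutrophil markers 1 rose (S100a8) and of 4 erythroid markers 1 fell (Alas2), while 0 of 5 cholangiocyte, 0 of 5 T and NK cell and 0 of 4 B and plasma cell markers were called. Het_F_115 lay within the range of the other livers in 9 of these 10 summed lists, hepatocyte markers included (82616 CPM), and above it in the erythroid list, with 490.2 CPM against 79.2 to 264 CPM. Its neutrophil sum, 3.492 CPM, lay just under the highest, 3.499 CPM in a KO liver, and above the other Het livers, at 0.523 to 1.43 CPM. A sum mostly reflects its most abundant genes, and some single markers in the 9 lists were also highest in Het_F_115. Lyve1 was at 31.3 CPM (3.93 to 20.5 in the others) and Timd4 at 7.79 CPM (1.53 to 5.77). Hnf4a, S100a9 and Cxcr2 were highest there as well, and Krt7 was lowest. These were named after their values were seen. The part of cell type composition in the levels of the 10 genes was not tested.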

How the data were processed

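Livers of 12 mice (3 per group) were profiled by stranded paired-end sequencing of ribosome-depleted total RNA. The authors mapped reads to GRCm39 using STAR 2.7.9a and GENCODE M34, and Salmon 1.10.1 provided the estimated counts of each gene. The deposited estimated counts (12.0% of values not whole) were rounded and used for every main result. The deposited TPM values, which the authors' pipeline scales to 1 total per library and which keep no depth, were used for levels between genes and in alternatives, as were a pair of tables of estimated counts that the authors scaled by length or from TPM. These scaled values divide by effective transcript lengths that differed between livers (for Phlda3 from 0.436 to 1, relative to its longest).

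The test was the quasi-likelihood F test of edgeR 4.0.16 (R 4.3.3), robust, with prior count 2 and TMM factors of 0.888 to 1.06, in a fit of the 4 group means. Genotype is the mean over the sexes of KO minus Het, and within-sex, sex and interaction contrasts came from the same fit. A gene was called when its adjusted p (Benjamini-Hochberg, 19355 tested genes) was under 0.05, and standard errors were derived from the F statistic. Every liver differed from every other by more than counting noise (66 pairs, lowest chi-square per degree of freedom 79.8). Groups came from the labels, and 0 columns of other samples were present. The fit was tested on simulated data.

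The members and all lists were chosen with earlier results of these data known. Named are the 10 members, Xpa, Ercc8 and Trp53, up to 12 called other targets of smallest p in each direction, up to 4 called genes of smallest p of each further list, 9 fixed relatives (Mdm4, Cdkn1b, Ccng2, Sesn1, Sesn3, Trp53inp2, Bcl2l1, Mki67 and Top2a), and the 3 genes with a mean of at least 1 CPM most like Cdkn1a. Further called genes appear by name beside the counts of their lists, chosen after their values were seen. Alternatives were the other estimated counts, scaling by library size only, no filter on low counts, at least 10 reads in every liver, DESeq2 1.42.0, limma 3.58.1 on log2(TPM + 1) and log2(TPM + 0.1), and leaving out each mouse. The newer quasi-likelihood method of edgeR and the lists without Het_F_115 were added after seeing the data. Decamer matches and gene positions come from GRCm39 and GENCODE M39, a later release on the authors' build. Figures were drawn with matplotlib 3.10.9.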

Additional observations from a re-analysis of the deposited data

Results flagged for a closer look

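Within the 6 Het and the 6 KO livers, 98 sets of values (49 named genes in each genotype) were examined for a highest or lowest liver that lay far from the rest by Dixon's criterion. For independent sets of normally distributed values this criterion picks out about 1 in 20, or 4.9 of 98, and 17 were picked out. CPM values of genes that vary together do not meet these conditions, so this comparison is not a test of chance. Of these 11 were Het_F_115, and 6 of the 10 p53 target genes were among them. In Het_F_115 the levels were 109.7 CPM for Cdkn1a, 103 for Mdm2, 173 for Ccng1, 15.7 for Eda2r, 6.26 for Phlda3 and 21.8 for Zmat3, each above the other 5 Het livers. Also standing out in the same liver were Mdm4 at 87.7 CPM, Ccng2 at 16.4 CPM, Thbd at 23.7 CPM, Vcam1 at 40.7 CPM and Fmnl2 at 26.0 CPM, of which the last 3 were named for their likeness to Cdkn1a and so are not a separate sign.

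Among KO livers, KO_F_108 stood above the others for Sesn2 (43.7 CPM), Sesn1 (52.5 CPM) and Bcl2l1 (94.1 CPM). Xpa was at 1.82 CPM in KO_F_112, the highest KO level and still below every Het liver. KO_M_136 was highest for Cdkn1c (3.04 CPM) and KO_F_123 for Psat1 (0.589 CPM). The causes of these single-liver values were not tested. The genotype effect of no named gene was called as different between the sexes.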

How the results depend on the processing

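The Het mice were age-matched littermates, but the labels give only a number for each mouse and not its litter. Litters could therefore not be paired or adjusted for, and the mice were treated as independent. With each mouse left out in turn, the number of the 10 genes called ranged from 0 to 1 for genotype (Cdkn1a without Het_F_115) and from 0 to 2 in females (Cdkn1a without Het_F_115, and Ccng1 and Eda2r without Het_F_126), and was 0 throughout in males, for sex and for the interaction. DESeq2 called 2 in females (Ccng1 and Eda2r), 1 for sex (Cdkn1a) and 19 other p53 targets where the main count was 12. The share of all genes called was not computed for DESeq2 or for fits without a mouse other than Het_F_115. For BCL2 family genes the count of 1 became 0 with scaling by library size only, 2 with DESeq2 (Mcl1 and Bcl2l11) and 0 to 1 with a mouse left out. For proliferation genes the count of 0 became 1 with length-scaled counts (Mybl2), 2 with DESeq2 (Ccna2 and Tyms) and 0 to 1 with a mouse left out. For ATF4 targets the count of 7 became 3 with at least 10 reads in every liver and 4 to 9 with a mouse left out, the lowest without Het_M_125 or KO_M_118.

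Directions turned in some alternatives, and of the values listed here 1 was called (Cdkn1a in females without Het_F_115, 3.64, adjusted p = 0.044). For genotype, Trp53inp1 gave 0.021 and 0.038 with length-scaled and TPM-scaled counts and 0.46 and 0.49 with limma on log2(TPM + 1) and log2(TPM + 0.1), and Phlda3 gave 0.011 with TPM-scaled counts and 0.014 and 0.25 with limma. In males, Trp53inp1 gave 0.34 and 0.37 with limma, and Zmat3 gave 0.063 with length-scaled, 0.056 with TPM-scaled and 0.032 with library size only, and 0.074 and 0.13 with limma. With a mouse left out, genotype values ranged from -0.51 to 0.15 for Mdm2, -0.085 to 0.18 for Bax, -0.32 to 0.67 for Trp53inp1, -0.34 to 0.63 for Phlda3, -0.0051 to 0.67 for Sesn2, -0.31 to 0.12 for Zmat3, -0.17 to 0.056 for Trp53, -0.018 to 0.10 for Mdm4, -0.17 to 0.067 for Sesn3 and -0.33 to 0.40 for Top2a. In females they ranged from -0.40 to 3.64 for Cdkn1a, -1.13 to 0.19 for Mdm2, -0.35 to 0.19 for Bax, -0.34 to 0.57 for Trp53inp1, -1.42 to 0.53 for Phlda3, -0.40 to 0.95 for Sesn2 and -0.59 to 0.27 for Zmat3, and in males from -0.042 to 0.20 for Mdm2, -0.74 to 1.18 for Trp53inp1 and -0.19 to 0.12 for Zmat3. The cause was not tested. Among called genes, Aldh4a1, Ddb2, Mcl1 and Gdf15 lost their call without any of 9, 8, 8 and 7 single mice, with adjusted p values up to 0.092, 0.10, 0.095 and 0.085, and Cdkn1c without 1 (KO_M_136). Of 771 single-gene values from the settings that keep all mice, 741 kept direction and side of the threshold, 14 lost their call, 2 gained one and 14 changed direction.

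With 3 mice per group, intervals for the most variable genes are wide. Phlda3 had 10 to 242 reads per liver and Cdkn1a as few as 9, so that counting error adds to the spread of the low values.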

Other observations

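Several genes that were not on the lists of p53 targets used here, named after their values were seen, also stood high in Het_F_115. Whether they respond to p53 was not tested. Ddias, which protects cells with DNA damage from apoptosis, was at 13.5 CPM there and at 0.476 to 1.71 CPM in the other 11 livers. Cyp2b10, a cytochrome induced through the nuclear receptor CAR, was at 168 CPM, against 1.14 to 65.7 CPM in the others. Hao2, a hydroxyacid oxidase, was at 31.5 CPM, against 0.0450 to 10.3 CPM. The haemoglobin genes Hba-a1 and Hbb-bs were at 222 and 247 CPM, against 15.9 to 73.6 and 34.3 to 114.7 CPM.

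Bmal1, a core clock gene, was at 28.3 CPM in Het_F_115, at 1.097 to 3.08 CPM in the other 5 Het livers and at 3.38 to 23.7 CPM in the 6 KO livers. Sult2a1, a sulfotransferase of bile acids and steroids, was at 313 CPM in Het_F_115, at 74.4 and 3.54 CPM in the other Het females, and at 248, 255 and 320 CPM in the 3 KO females. For Cdkn1a, Bmal1 and Sult2a1, Het_F_115 thus lay nearer to the KO females than to the other Het females. Bmal1 and Sult2a1 were picked after their values were seen. Asns, Trib3 and Sesn1, which rose in KO livers, went the other way, and Het_F_115 was the lowest of the 12 livers for each. It was at 0.0776 CPM for Asns (0.654 to 45.8 in the others), 2.15 CPM for Trib3 (5.65 to 22.6) and 10.4 CPM for Sesn1 (13.01 to 52.5). By Xpa and Ercc8 it lay with the other Het livers, at 3.596 CPM for Xpa (0.990 to 1.82 in KO livers) and 8.67 CPM for Ercc8 (14.7 to 34.3 in KO livers).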
